A study of Mus musculus with 5 samples.

Results

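NC replicate 2 was 1 of the 5 mRNA libraries of the study, and its transcriptome was set against those of 3 others, NC replicate 1, the siRNA210 library and siRNA596 replicate 1. The library labelled siRNA596 replicate 2 took no part in this comparison, and its Gas5 count went against its label, at 4727 of 30660265 counts against 3178 and 2916 in the larger NC libraries. Genes were kept when their mean over the 4 libraries was at least 1 CPM (counts scaled to the library total after TMM normalization), which 12861 of the 55487 genes in the deposited table reached. At that boundary Gm15283 (35, 39, 39 and 27 counts in NC replicate 1, NC replicate 2, siRNA210 and siRNA596 replicate 1) and Spag8 were just inside, and Gm20689 (26, 37, 29 and 48 counts) and Gm5841 were just outside.

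The cells were HT22, an immortalized mouse line derived from hippocampus. They were collected 48 h after transfection with 10 nM siRNA by INTERFERin, and all 4 libraries share this reagent, dose and time. GAS5, or growth arrest-specific 5, a long non-coding RNA, was targeted by siRNA210 or siRNA596, which the study pooled as the KD group, and the NC group was given a control siRNA. The labels call the NC samples untreated, whereas their titles and the study's methods give NC siRNA. No label states an extraction or sequencing batch, or whether replicates came from separate cultures, so any *P*-value below measures only the spread between these samples.

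Total counts were 36492134 in NC replicate 2 and between 33884066 and 34939173 in the other 3 libraries, and mitochondrial genes took 1.44% of counts against 1.39 to 1.58%. Gas5 matched the labels of all 4 libraries, with 93.7 CPM in NC replicate 1, 79.0 in NC replicate 2, 61.8 with siRNA210 and 68.3 with siRNA596. Of the 13 neuronal markers examined, 5 reached a mean of 1 CPM, among them Map2 and Tubb3. Map2 was higher in NC replicate 2 with 3336 counts against 2427 to 2630, and Tubb3 was lower with 573 against 889 to 970. The 13 summed to 208 CPM in NC replicate 2 against 210 to 223 in the others. Another 6 of the 13 had no count in any of the 4 libraries, among them Rbfox3, Snap25 and Stmn2. Of 8 fibroblast or mesenchymal genes 7 reached that level, with a summed 8235 CPM in NC replicate 2 against 8098 to 9052 in the others. Markers of microglia or macrophages summed to 5.42 CPM in NC replicate 2 and 6.87 to 7.68 in the others, with Ptprc, Tyrobp and Itgam at 0 in all 4. Astrocyte markers summed to 53.6 CPM against 27.5 to 34.1, nearly all of it Slc1a3, a glutamate transporter, while Aqp4 was at 0 in all 4. Endothelial markers stayed between 0.724 and 1.45 CPM in sum, epithelial markers summed to 1.71 CPM in NC replicate 2 against 4.43 to 5.48, with Epcam at 0, and oligodendrocyte markers to 2.46 CPM against 2.84 to 3.48, with Olig1 and Olig2 at 0. The part of such genes in the differences below was not tested.

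Several of the programmes described here are switched by known regulators. Interferons, and intracellular sensors of foreign RNA, act through transcription factors that bind a short element, the ISRE, before genes such as Ifit1 and Isg15. Low oxygen stabilizes hypoxia-inducible factor, which binds the hypoxia response element (HRE) and raises genes for glycolysis, redox folding of secreted proteins and blood vessel growth. Sterol shortage activates SREBP2 and with it cholesterol synthesis, and oxidants, haem and metals raise Hmox1 and the metallothioneins through NRF2 and other factors.

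NC replicate 2 stood farther from each of the other 3 libraries than any of these stood from another. Between NC replicate 2 and NC replicate 1 there were 1144 genes past 1.5-fold, and there were 1182 between it and siRNA210 and 1007 between it and siRNA596 replicate 1. The 3 pairs that did not hold it had 476, 440 and 487 such genes. The median absolute difference was 0.15 to 0.17 on the log2 scale in pairs with NC replicate 2 and 0.08 to 0.10 in the others. The library given the same siRNA was thus not nearer to NC replicate 2 than siRNA596 replicate 1 was.

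**Figure D1:**
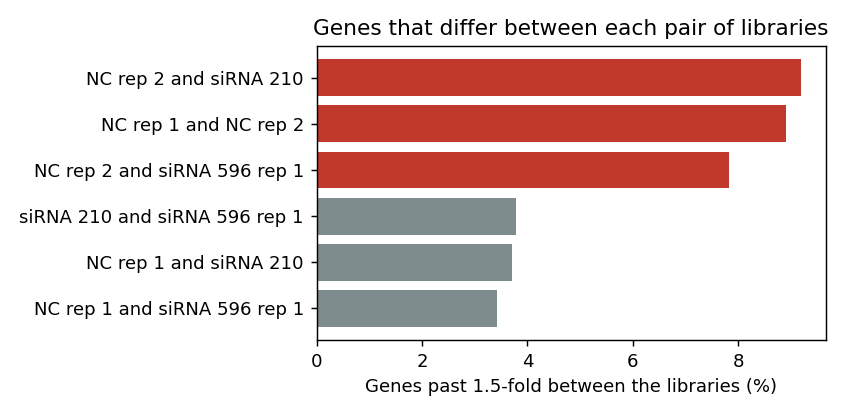
Percent of the 12861 genes that differ by more than 1.5-fold between each pair of the 4 libraries (x axis, %). Red bars are the pairs with NC replicate 2, at 7.83 to 9.19%, and grey bars are the other pairs, at 3.42 to 3.79%.

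A gene was called apart when its log2 CPM in NC replicate 2 lay outside the range of the other 3 libraries and at least 1.5-fold from their mean. This is a description of 1 library against 3, singled out with results of these data known, and has no test. It held for 921 genes, or 7.16%, of which 321 (2.5%) were higher and 600 (4.67%) lower in NC replicate 2. At 2-fold there were 203, with 44 higher and 159 lower. Over all genes the median difference was -0.0016 on the log2 scale. Differences are given below as log2 of NC replicate 2 over the mean of the other 3, with values in the order NC replicate 1, NC replicate 2, siRNA210 and siRNA596 replicate 1.

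**Figure D2:**
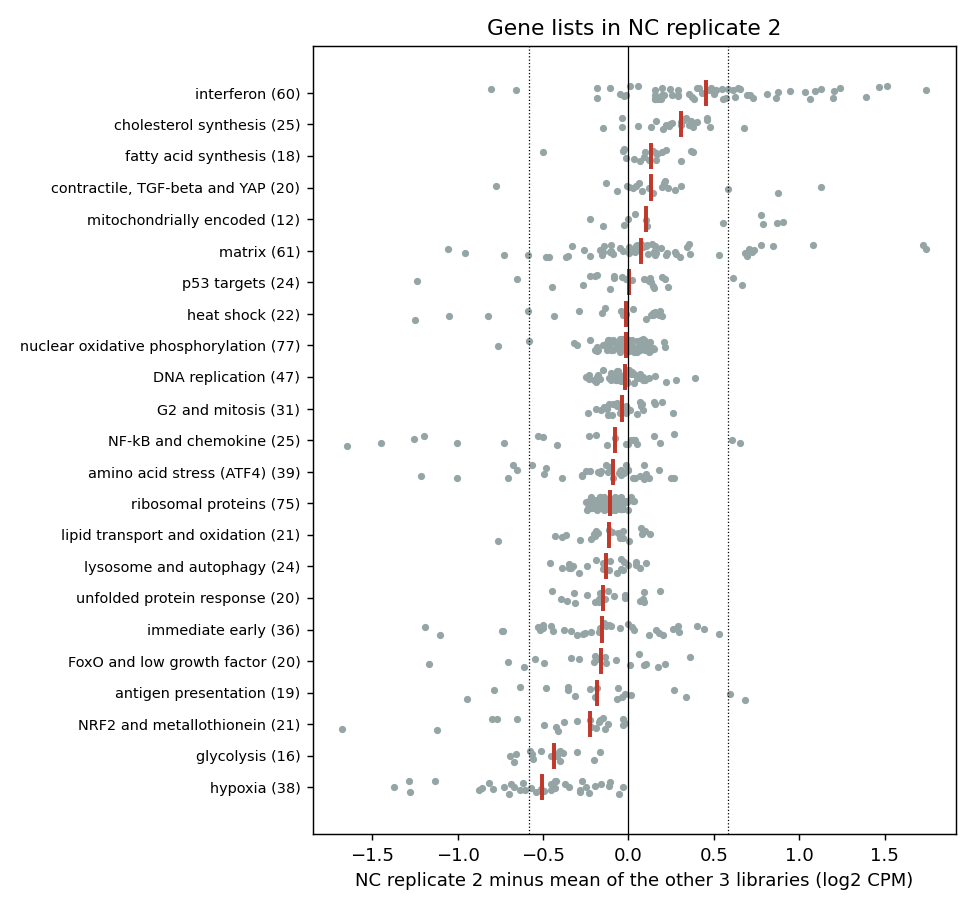
Difference of each member gene between NC replicate 2 and the mean of the other 3 libraries (x axis, log2 CPM) by gene list (y axis, members tested in parentheses). Grey points are genes, red bars are list medians and dotted lines mark 1.5-fold; the interferon median is 0.45, the hypoxia median is -0.50 and the glycolysis median is -0.44.

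Interferon-stimulated genes were higher in NC replicate 2. Of 60 members with a mean of 1 CPM or more, 22 were apart and higher against 2.5% of all genes, 2 were apart and lower, and 50 lay above all 3 other libraries, where 34% of all genes did. The median difference was 0.45, and the list summed to 2086 CPM against 1618 to 1701. The medians of the other 3 libraries, taken against their own mean, were -0.02, -0.01 and 0.05.

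The promoters of the 2 members with the largest difference that were in the RefSeq table and held an ISRE are shown because their genes lead the list. Each is up to 250 bases before the RefSeq start in GRCm38.p6, less any bases that lie inside the gene as GENCODE places it, printed 5′ to 3′ on the gene's strand, at chr19:34640639-34640870 (plus strand) for Ifit1 and chr19:34583279-34583528 (plus strand) for Ifit3. Capitals mark the ISRE letters, searched on both strands as GAAA, then NN for any bases, then GAAA, and each promoter held 2 matches.
Ifit1: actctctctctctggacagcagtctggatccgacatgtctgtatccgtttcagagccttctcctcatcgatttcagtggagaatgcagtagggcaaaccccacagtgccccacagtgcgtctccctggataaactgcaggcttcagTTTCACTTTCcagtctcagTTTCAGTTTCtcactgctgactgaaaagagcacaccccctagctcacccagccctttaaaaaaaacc
Ifit3: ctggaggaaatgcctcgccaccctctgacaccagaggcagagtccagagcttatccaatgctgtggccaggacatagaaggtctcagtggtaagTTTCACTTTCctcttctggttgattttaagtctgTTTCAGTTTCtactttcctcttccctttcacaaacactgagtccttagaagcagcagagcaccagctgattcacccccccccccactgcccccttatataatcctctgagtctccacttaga
Over the full 250 bases the motif was held by 19 of the 49 interferon members whose promoter was listed, or 38.8%, against 244 of all 9526 tested genes with a promoter, or 2.56%. A match is a match of letters and does not show that a factor was bound.

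Ifit1, whose protein binds foreign RNA lacking a host cap (chr19:34640871-34650009), was at 8.70, 36.2, 11.4 and 12.6 CPM, a difference of 1.74. Isg15, a ubiquitin-like protein conjugated to many targets (chr4:156199424-156200818), was at 30.9, 82.8, 31.9 and 31.8 CPM, a difference of 1.39. In both genes NC replicate 2 was the highest and did not overlap the other 3 libraries, whose SD on the log2 scale was 0.28 for Ifit1 and 0.02 for Isg15.

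Members for RNA sensing and antiviral action stood higher as well. Ifih1, the sensor MDA5, was at 15.4, 34.8, 19.0 and 20.1 CPM (0.95), and Oasl2, of the oligoadenylate synthetase family, at 16.3, 38.3, 18.9 and 21.2 CPM (1.03). Irf7, a transcription factor that amplifies the response, was at 9.40, 17.9, 11.3 and 12.7 CPM (0.69). Oasl1 (1.09), Rtp4 (1.06), Gbp3 (1.20), Ifi44 (1.24), Ifit3 (1.51), Oas2 (1.47) and Zbp1, a sensor of Z-form nucleic acid (1.13), were also apart and higher. Ifit3, Oas2 and Zbp1 were low, with 28 to 142 counts in any library. Members of the Ifit3, Oas1 and Gbp families share near-identical copies that the counting could split.

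Not all interferon-linked genes were higher. Isg20, an exonuclease, was at 30.2, 17.2, 32.4 and 28.0 CPM (-0.81), and Slfn2 was lower too (-0.66). In every list below the counts of genes apart stand against 2.5% higher and 4.67% lower among all genes. Counts of genes above or below all 3 other libraries stand against 34% and 35.7%. In a short list 1 or 2 genes change the share much. Of 19 antigen presentation genes, which interferons also raise, 2 were apart and higher and 3 lower, with a median of -0.19. Nlrc5, the activator of MHC class I genes, was at 8.17, 4.14, 7.42 and 8.55 CPM (-0.95), and Psmb8, a subunit of the immunoproteasome, at 19.8, 12.1, 20.5 and 22.9 CPM (-0.79), whereas Erap1, a peptide-trimming peptidase, was at 24.6, 37.5, 21.6 and 23.7 CPM (0.68).

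Hypoxia-response genes were lower in NC replicate 2. Of 38 members tested none was apart and higher, 15 were apart and lower against 4.67% of all genes, and 34 lay below all 3 other libraries, where 35.7% of all genes did. The median was -0.50, and the summed level was 6143 CPM against 9042 to 9929. The medians of the other 3 libraries were -0.05, 0.08 and -0.04.

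Ero1l, an oxidase for disulphide bonds in the endoplasmic reticulum (chr14:45283087-45318771), was at 633, 273, 706 and 651 CPM, a difference of -1.28. Gbe1, the glycogen branching enzyme (chr16:70313949-70569716), was at 118, 48.2, 131 and 106 CPM (-1.29). Ndrg1, a stress-responsive gene, was at 433, 205, 500 and 421 CPM (-1.14). In these 3 genes the level in NC replicate 2 lay below the lowest of the others by more than their whole range. Vegfa, the angiogenic growth factor, was at 189, 113, 209 and 200 CPM (-0.82), Bnip3, a mitophagy receptor, at 236, 131, 254 and 221 CPM (-0.85), and Pdk1, which restrains entry of pyruvate into mitochondria, at 296, 185, 305 and 283 CPM (-0.67).

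The list was not uniform. Car9, a carbonic anhydrase used widely as a hypoxia marker, was at 72.0, 62.0, 76.0 and 70.1 CPM (-0.23), and Slc2a1, the glucose transporter GLUT1, at 286, 257, 335 and 297 CPM (-0.25). Both were the lowest in NC replicate 2, though by less than 1.5-fold. The largest difference of the list was that of Car12 (-1.37), which had 24 to 72 counts.

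The promoters of Fam162a (chr16:36071595-36071811, minus strand) and Bnip3 (chr7:138909520-138909756, minus strand), cut in the same way, are shown as the 2 members with the largest difference that had at least 200 listed bases outside the gene and held an HRE core. Capitals mark ACGTG or GCGTG on either strand, with 5 matches in each, of which those at the palindrome in Bnip3 overlap.
Fam162a: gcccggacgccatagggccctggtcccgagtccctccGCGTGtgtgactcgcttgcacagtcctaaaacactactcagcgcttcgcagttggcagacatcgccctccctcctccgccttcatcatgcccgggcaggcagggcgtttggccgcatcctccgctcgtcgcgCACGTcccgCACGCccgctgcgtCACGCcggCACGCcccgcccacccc
Bnip3: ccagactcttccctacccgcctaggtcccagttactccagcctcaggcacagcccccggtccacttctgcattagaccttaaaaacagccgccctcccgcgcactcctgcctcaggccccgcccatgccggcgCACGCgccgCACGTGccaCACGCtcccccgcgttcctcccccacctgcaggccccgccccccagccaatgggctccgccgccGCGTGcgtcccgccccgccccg
Over the full 250 bases before the RefSeq start, these short cores were in 26 of the 33 hypoxia members with a promoter (78.8%) and in 5537 of the 9526 tested genes (58.1%). Fam162a, a mitochondrial protein, was at 382, 206, 400 and 357 CPM (-0.88).

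All 16 glycolytic enzymes tested were below the other 3 libraries, where 35.7% of all genes were, and 3 of them were apart. The median was -0.44, and the enzymes summed to 17449.97 CPM against 23695 to 25593. Pgk1, phosphoglycerate kinase, was at 2735, 1740, 2893 and 2630 CPM (-0.66), and Gpi1, glucose-6-phosphate isomerase, at 1176, 757, 1288 and 1150 CPM (-0.67). Gapdh, which the study used as the reference gene of its RT-qPCR, was at 202, 153, 245 and 241 CPM (-0.57), just under the boundary. Gapdh has many processed pseudogenes with which it may share reads. The 77 nuclear genes of oxidative phosphorylation had a median of -0.02, with 1 lower, and 4 of 12 mitochondrially encoded genes were apart and higher with a median of 0.10. Those 4 included mt-Co3, at 6.49, 12.7, 8.20 and 7.65 CPM. Among them mt-Nd3 (13, 54, 34 and 41 counts) and mt-Nd4l (39, 77, 34 and 39 counts) had few reads. For mt-Atp6 the other 3 libraries had an SD of 0.47 on the log2 scale. The summed level of all 12 lay within the range of the other libraries.

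Matrix genes were apart and higher more often than all genes, and the list median was near 0. Of 61 tested, 10 (16.4%, against 2.5% of all genes) were apart and higher and 4 (6.56%, against 4.67%) lower, with a median of 0.07 and a summed 29070 CPM inside the 27334 to 29700 of the others. Thbs1, thrombospondin 1, an adhesive glycoprotein (chr2:118111876-118127133), was at 283, 601, 283 and 287 CPM (1.08). The other 3 libraries had an SD of 0.01 on the log2 scale for it. Col1a2, a chain of type I collagen, was at 737, 1225, 816 and 736 CPM (0.69), Fbn1, fibrillin, at 146, 247, 155 and 149 CPM (0.72), and Postn, periostin, at 2.48, 6.91, 2.03 and 1.71 CPM (1.73).

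The share of lower matrix genes was near that of all genes. Col6a3, a chain of type VI collagen, was at 53.8, 28.8, 57.3 and 57.3 CPM (-0.96), and Lox, which crosslinks collagen and stands in the hypoxia list as well, at 1218, 743, 1245 and 1222 CPM (-0.73). Fbln2 (-1.06) and Timp3 (-0.59) were the other members apart and lower. Fn1, fibronectin, was at 4627, 4429, 5143 and 5001 CPM (-0.15). Among contractile genes and targets of TGF-beta and YAP, 2 of 20 were higher and 1 lower, with a median of 0.13. Ccn2, a growth factor of the matrix, was at 20.1, 40.3, 19.96 and 15.6 CPM (1.13), and Acta2, smooth muscle actin, at 141, 281, 162 and 158 CPM (0.87).

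Lipid genes differed by small amounts, though cholesterol synthesis did so in 1 direction. Of its 25 genes 21 lay above all 3 other libraries, where 34% of all genes did. The median was 0.31, but only 1 was apart. Fdps, farnesyl diphosphate synthase, was at 7.78, 13.2, 8.66 and 8.32 CPM (0.68), and it too has processed pseudogenes. Lss, lanosterol synthase, was at 125, 174, 127 and 129 CPM (0.46).

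The 18 fatty acid synthesis genes had a median of 0.13 with none apart, and Fasn, fatty acid synthase, was at 684, 907, 773 and 749 CPM (0.31). Of 21 genes of lipid transport and oxidation 1 was apart and lower, Ppargc1a, a coactivator of mitochondrial genes (2.65, 1.19, 1.65 and 2.00 CPM), and the median was -0.11. Plin2, which coats lipid droplets, was at 161, 125, 184 and 159 CPM (-0.43).

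Genes of the NRF2, amino acid stress and heat shock lists that were apart were all lower in NC replicate 2. Hmox1, haem oxygenase 1 (chr8:75093621-75100589), was at 414, 129, 443 and 382 CPM, a difference of -1.68. Mt1, a metallothionein, was at 396, 192, 463 and 402 CPM (-1.12), and Sqstm1, the autophagy adaptor p62, at 783, 474, 743 and 712 CPM (-0.65). Of the 21 genes of the NRF2 and metallothionein list 19 lay below all 3 others, where 35.7% of all genes did. Of the 21, 5 were apart and lower and none higher, with a median of -0.23. Gsta4, a glutathione transferase, was at 129, 74.0, 134 and 124 CPM (-0.80). Among members under the 1.5-fold boundary were Nqo1 at 52.8, 43.0, 56.3 and 58.6 CPM (-0.38) and Gclm at 83.3, 71.8, 79.3 and 83.1 CPM (-0.19), which were picked after their values were seen.

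Among genes picked here after their values were seen are 3 of iron handling. Tfrc, the transferrin receptor that imports iron (chr16:32608920-32632794), was at 131, 370, 107 and 134 CPM, a difference of 1.58. Ftl1, the light chain of the iron store ferritin, was at 588, 354, 639 and 581 CPM (-0.77), whereas the heavy chain Fth1 was at 1083, 1001, 1134 and 1149 CPM (-0.16). Ftl1 has near-identical copies.

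The other stress lists differed less in their medians. Of 39 genes of amino acid stress under ATF4, 5 were apart and lower with a median of -0.09. Of the 39, 9 lay above all 3 others and 22 below, against 34% and 35.7% of all genes. Atf3 was at 45.5, 17.6, 41.4 and 36.4 CPM (-1.21), Gdf15, a stress-induced cytokine, at 16.6, 7.72, 14.6 and 15.5 CPM (-1.01), and Ddit3, the factor CHOP, at 40.8, 24.3, 40.0 and 37.9 CPM (-0.70). Of 22 heat shock genes 4 were apart and lower with a median of -0.02, led by Hspa1a (-1.25), whose near-identical copy Hspa1b was at -0.82. In this list 9 genes lay above all 3 others and 9 below, so it did not lean to 1 side. Hspb1, a small chaperone, was at 47.1, 22.4, 47.9 and 44.5 CPM (-1.05). None of 20 genes of the unfolded protein response was apart, but 14 lay below all 3 others, where 35.7% of all genes did. Their median was -0.15. The medians of the other 3 libraries, each taken against a mean that includes it, were 0.003, 0.02 and -0.03. Of these genes Hspa5, the chaperone BiP, was at 1060, 846, 1076 and 1032 CPM (-0.32).

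Several inflammatory genes were also low. Nos2, inducible nitric oxide synthase (chr11:78920787-78960254), was at 168, 48.6, 203 and 169 CPM, a difference of -1.88. Among 25 NF-kB and chemokine genes 6 were apart and lower and 2 higher, with a median of -0.08. Ptgs2, cyclooxygenase 2, was at 124, 47.8, 101.3 and 105 CPM (-1.20), and Il33, an alarmin cytokine, at 14.7, 5.63, 14.8 and 17.1 CPM (-1.45). Ccl5, a chemokine that interferon signalling also raises, was higher, at 5.54, 9.13, 5.33 and 6.58 CPM (0.65).

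Among protein-coding genes with a mean of 5 CPM or more, several of the 12 largest differences in each direction were outside the lists. Ly6c1 (-1.90), Vwa1, a matrix-associated protein (-1.90), Ly6a (-1.73) and Prl2c2, or proliferin (-1.70), were lower, and Ly6c1, Ly6a and Prl2c2 have close paralogs between which the counting could split reads. Mgll, monoacylglycerol lipase (-1.55), Ndrg2 (-1.54), Acap1 (-1.51), Srp54a (-1.49, with near-identical copies) and Pim1, a survival kinase (-1.40), followed. Fmod, the matrix proteoglycan fibromodulin, was at 4.75, 13.5, 3.45 and 4.40 CPM (1.69), and Npr3, the natriuretic peptide clearance receptor, was at 27.9, 70.1, 33.2 and 30.66 CPM (1.20). Slc24a3 (1.05) and Ptchd4 (1.02) completed the 12 highest at that level. Genes under 5 CPM reached larger differences, among them Gm19410 (-3.31).

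**Figure D3:**
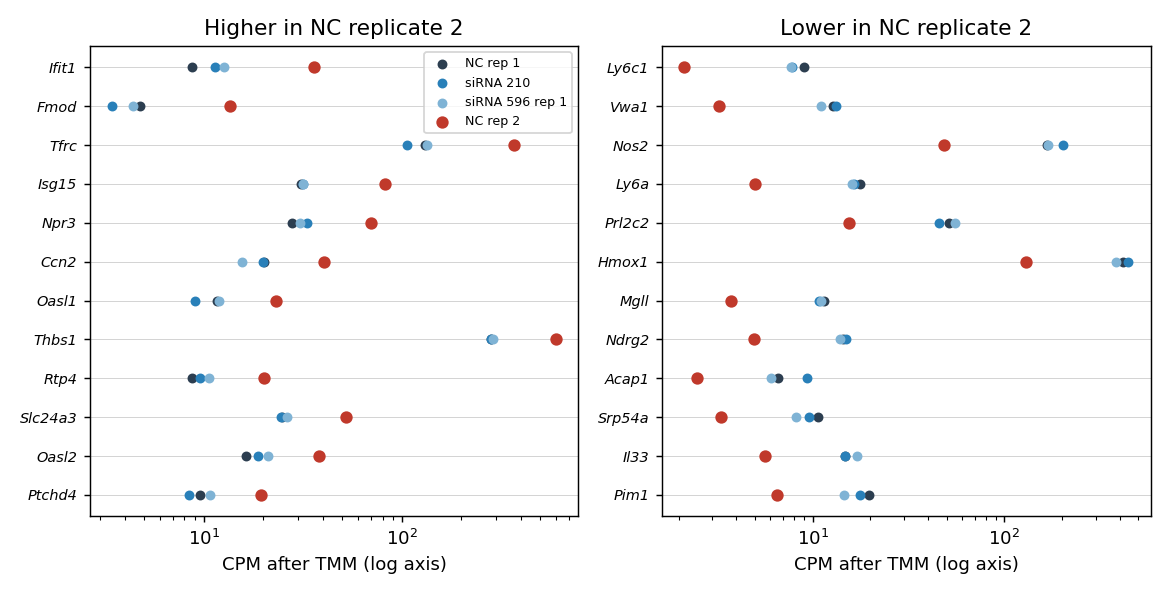
Level of the 12 protein-coding genes with the largest difference in each direction, among genes with a mean of 5 CPM or more (x axis, CPM after TMM, log axis). Red points are NC replicate 2 and the other colours are NC replicate 1, siRNA210 and siRNA596 replicate 1, and the red point lies outside the others in every row.

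Genes of DNA replication and mitosis were near level. None of 47 DNA replication genes and none of 31 G2 and mitosis genes was apart, with medians of -0.02 and -0.04. None of 75 ribosomal protein genes was apart either, though 61 of them lay below all 3 others, where 35.7% of all genes did. Their median was -0.11. None of 24 lysosome and autophagy genes was apart, with a median of -0.13. Of 36 immediate early genes 4 were lower, among them Dusp1, a phosphatase of MAP kinases, at 62.3, 37.6, 62.5 and 62.8 CPM (-0.73), and Ier3 at 201, 95.9, 219 and 200.4 CPM (-1.11). Of 20 FoxO and growth factor genes 3 were lower, among them Igfbp4 (-1.17), with a median of -0.16.

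Among 24 p53 targets and cyclin genes 2 were higher and 2 lower, with a median of 0.01. Cdkn1a, the cell cycle inhibitor p21 (chr17:29090976-29100727), was at 68.5, 32.8, 92.9 and 73.3 CPM, a difference of -1.24. Ccnd1, cyclin D1, was at 211, 308, 189 and 205 CPM (0.61). For both genes the 2 NC libraries lay farther apart than the KD libraries did.

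The knockdown comparison rests on 2 NC libraries, of which NC replicate 2 was 1. By edgeR's quasi-likelihood test on the 4 libraries, 34 genes passed the study's criteria of an unadjusted *P*-value of 0.05 and a 2-fold change (0.264% of genes), with 17 higher and 17 lower in the KD group. No gene passed an adjusted *P*-value of 0.05, while 387 (3.01%) had an unadjusted *P*-value under 0.05, and DESeq2 gave 1 gene (0.00778%) at the adjusted level. The KD pair holds 2 different siRNAs and the NC pair 1. The NC pair held 67.9% of the summed squared differences within groups, and it differed more than the KD pair in 8287 of the 12861 genes. The common biological coefficient of variation was 0.106 with both NC libraries. With either NC library alone it was 0.061, a value that comes from the KD pair only and does not describe that NC library.

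Of the 34 genes, 25 were apart in NC replicate 2. The 34 were chosen for a 2-fold change in which NC replicate 2 took part. This share therefore cannot be set against the 7.16% of all genes. NC replicate 2 lay farther from the KD mean than NC replicate 1 in 25 of the 34, and in 8758 of all 12861 genes. In 32 of the 34 both NC libraries lay on 1 side of both KD libraries, as they did in 4196 of all 12861 genes. The 34 were chosen by a *P*-value on this same split, so the separation is no further support for them. Between the KD mean and NC replicate 1, 13 of the 34 were past 2-fold. Leaving NC replicate 2 out gave 55 genes past the criteria (0.428%), 12 of them among the 34, and again none at an adjusted *P*-value of 0.05 (452 at an unadjusted 0.05, or 3.52%). Leaving NC replicate 1 out gave 234 (1.82%), 27 of them among the 34, with 183 higher (1.42%) and 51 lower (0.397%) in the KD group and 1220 genes (9.5%) at an adjusted *P*-value of 0.05 by edgeR. In each of these fits the lone NC library was taken to vary as the KD pair does. Since NC replicate 2 was singled out as distant, the 1220 describe that library and are no evidence of a knockdown effect.

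The genes apart were chosen for their distance from NC replicate 1 and both KD libraries, so their values in this comparison restate that choice and are given as a description. For the 321 higher genes the median log2 fold change was -0.44 between the KD group and both NC libraries, 0.02 against NC replicate 1 alone and -0.72 against NC replicate 2 alone. For the 600 lower genes these medians were 0.37, 0.01 and 0.85. With both NC libraries in the fit 95 of the 921 had an unadjusted *P*-value under 0.05 by edgeR, as had 387 of all 12861 genes (3.01%). None of the 921 had an adjusted one under 0.05.

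The list medians in the knockdown comparison depended on the NC library, in sign for the interferon, cholesterol synthesis and matrix lists, among others, and in size for hypoxia, glycolysis and NRF2. The median log2 fold change of the interferon genes was -0.21 against both NC libraries, 0.03 against NC replicate 1 and -0.45 against NC replicate 2. For hypoxia genes the values were 0.29, 0.07 and 0.53, for glycolysis 0.25, 0.05 and 0.46, and for cholesterol synthesis -0.13, 0.08 and -0.28. In the NRF2 and metallothionein list they were 0.13, 0.02 and 0.24, and in the matrix list 0.02, 0.07 and -0.04.

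**Figure D4:**
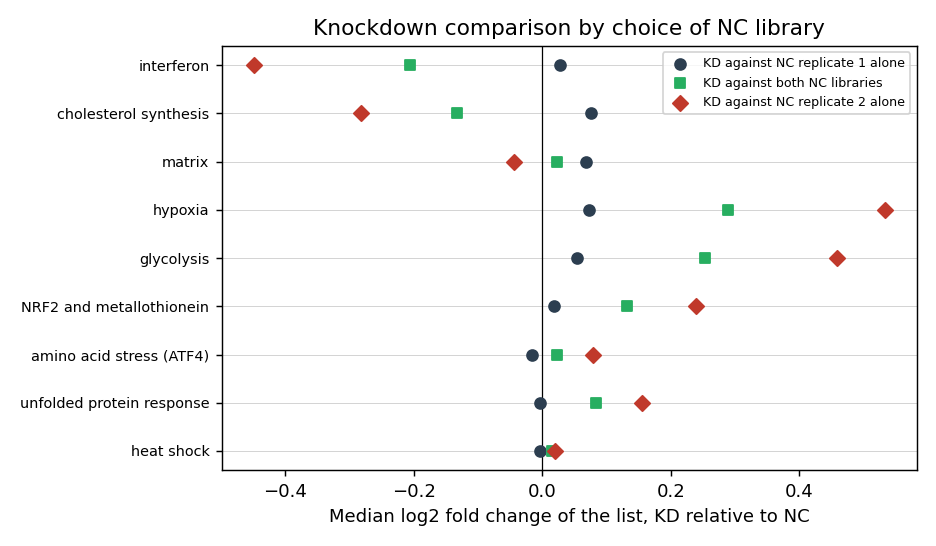
Median log2 fold change of 9 gene lists between the KD and NC groups (x axis), with NC replicate 1 alone (dark circles), both NC libraries (green squares) or NC replicate 2 alone (red diamonds) as control. For hypoxia the 3 medians are 0.07, 0.29 and 0.53, and for interferon 0.03, -0.21 and -0.45.

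At an adjusted *P*-value of 0.05 by edgeR, none of these genes passed with both NC libraries or with NC replicate 1 alone. With NC replicate 2 alone, 29 of the 38 hypoxia genes and 14 of the 16 glycolytic genes would have been called higher in the KD group, where 5.93% of all genes were. In the same fit 22 of the 60 interferon genes and 11 of 25 cholesterol synthesis genes would have been called lower, where 3.57% of all genes were.

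Single genes show what 1 library did to a call. Tfrc passed the study's criteria with a log2 fold change of -1.06 (SE 0.38, adjusted *P* = 0.94 by edgeR) against both NC libraries, but was at -0.13 (SE 0.11) against NC replicate 1 and at -1.62 (SE 0.10) against NC replicate 2. Postn went from -1.33 with both to -0.40 without NC replicate 2, Fmod from -1.22 to -0.27, and Oas2 from -1.22 to -0.55. Gm19410, with 38, 4, 65 and 65 counts, went from 1.63 to 0.75. None of these 5 genes passed the criteria against NC replicate 1 alone.

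Among the genes with the smallest *P*-values the dependence was weaker. Ppp1r3e, a glycogen-targeting phosphatase subunit, had 90, 100, 39 and 30 counts, and its log2 fold change was -1.42 with both NC libraries, -1.40 against NC replicate 1 and -1.43 against NC replicate 2. Gm28710, with 18, 13, 46 and 71 counts, was at 1.94, 1.67 and 2.26. Zbp1 moved from -1.06 to -0.67 without NC replicate 2 and 6330537M06Rik from -1.05 to -1.18. The pseudogene-like Gm6087 (1.52, 1.89 and 1.24) and Gm16199 (1.11, 0.99 and 1.24) may share reads with other loci. Npas3 (-1.55) and Gm16580 (-1.12) fell under 1 CPM on average once NC replicate 2 was left out and were then not tested.

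Cdkn1a, Ccnd1 and Gapdh, chosen for this comparison after their values were seen, depended on the NC library as well. Cdkn1a, whose protein the study blotted, was 0.72 higher in the KD group on the log2 scale (SE 0.28, adjusted *P* = 0.94 by edgeR), with 0.28 against NC replicate 1 and 1.35 against NC replicate 2. Ccnd1 was at -0.40 (SE 0.16), -0.10 and -0.64, respectively. Gapdh was at 0.45 (SE 0.12, adjusted *P* = 0.94 by edgeR), 0.27 and 0.67. Gas5 itself, the target, was at -0.41 (SE 0.11, adjusted *P* = 0.94 by edgeR), -0.53 and -0.27, so that NC replicate 2 made the fall smaller.

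**Figure D5:**
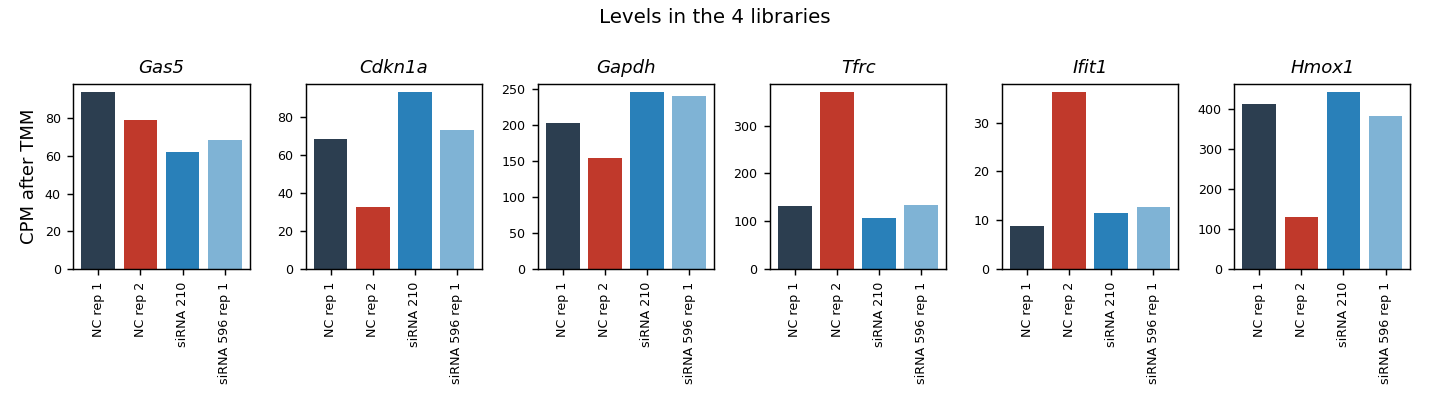
Level of Gas5, Cdkn1a, Gapdh, Tfrc, Ifit1 and Hmox1 (y axes, CPM after TMM, each from 0) in the 4 libraries, with NC replicate 2 in red. Gas5 is highest in the NC libraries, whereas in the other 5 panels NC replicate 2 lies outside the range of the other 3 libraries.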

How the data were processed

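The deposited counts give reads per gene as the authors obtained them with Trimmomatic, HISAT2 2.1.0 against GRCm38, SAMtools 1.7 and featureCounts 2.0.1 on the Ensembl 101 annotation, without normalization, per the study's methods and the submitters' processing notes. The strand setting, the treatment of multi-mapped reads and of mates is not given in the sources used here. Among counts of 1 to 20 in a library, 62.0 to 68.0% were even, against 49.4 to 50.3% above 100. Reads of a pair may thus have been counted separately, in which case counting error would be larger than the counts alone give. This was not tested. A second table deposited by the authors holds their DESeq2 1.26.0 results (mean counts, log2 fold changes, standard errors, Wald scores and P values) and was not used. Gene IDs were matched to names in GENCODE M21 (99.5%).

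Here, TMM normalization and quasi-likelihood tests used edgeR 4.0.16 in R 4.3.3, with a prior count of 2 for log2 CPM and Benjamini-Hochberg adjustment. DESeq2 1.42.0 served as an alternative, and figures used Python 3.11.15 with matplotlib 3.10.9. The members and gene lists were chosen with earlier results of these data known. Named genes were Gas5, the 12 protein-coding genes with the largest difference in each direction (mean CPM of 5 or more), 4 of each list, and 5 of the knockdown comparison in each direction plus 5 whose fold change moved most without NC replicate 2. Some genes that fall under this rule are not reported here. The other list members given with values were chosen after their values were seen. On simulated data with 200 genes changed 2-fold, 98.0% were recovered in the comparison of KD with NC (12782 genes, 11 false calls) and 84.9% against NC replicate 1 alone (12788 genes), and 99.0% were found apart in NC replicate 2 (12792 genes, 70 others called). These shares rest on 1 dispersion of 0.0113. Recovery of 2-fold changes in the deposited libraries, with a control as distant as NC replicate 2, was not tested. Promoter sequences came from RefSeq (GRCm38.p6). Alternatives covered scaling, filters, prior count, fold, transcript length and GC content, robust fitting, DESeq2, the addition of siRNA596 replicate 2 and each library left out.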

Additional observations from a re-analysis of the deposited data

How the results depend on the processing

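Alternatives were run for the counts of genes, 10 list medians and the 24 genes with the largest differences in NC replicate 2, and of these only the heat shock median, near 0, changed sign. The other list medians were not rerun, and the knockdown medians against either NC library stand in the report, where some changed sign, those of the interferon and cholesterol synthesis lists among them. The median of all genes was -0.0016 with TMM, 0.000071 with DESeq2 size factors and 0.021 with library size only. Of the alternative values of the main results 68 stayed within the spread or within 1.5 times the count and 19 moved; for single genes and other lists 257 stayed and 4 moved. The 921 genes apart became 390 (117 higher, 273 lower) at a mean CPM of 5 or more and 203 (44 and 159) at 2-fold, the higher ones became 504 with filterByExpr, and leaving out a library of the 3 gave 947 to 1019. The interferon median was 0.41 at a mean CPM of 5 or more. The NRF2 and metallothionein median was -0.20 with library size only, -0.26 with filterByExpr and -0.25 to -0.23 with a library left out, and the matrix median was 0.045 to 0.12 with a library left out. The heat shock median was -0.02 with TMM and 0.01 with library size only. Removing trends with transcript length and GC content gave 916 genes apart, 881 of them among the 921. The 34 genes past the criteria in the knockdown comparison became 22 with DESeq2, 138 with filterByExpr, 282 with no filter beyond 1 count, 10 with all 5 libraries, of which the one labelled siRNA596 replicate 2 goes against its label in Gas5, and 24 to 234 with a library left out. The larger counts without a filter include genes of few reads, where fold changes are large. Depth limits mainly genes near 1 CPM, about 35 reads per library.

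With the libraries labelled siRNA596, of which replicate 2 goes against its label, and NC, which share replicate numbers 1 and 2, 13 genes passed the criteria without the replicate block and 397 with it, and none had an adjusted *P*-value under 0.05 in either fit by edgeR. Deviations of same-numbered samples correlated at 0.14 over 12806 genes, and with 2 pairs and no label that ties them the samples share only a number.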
